A study of Mus musculus with 8 samples.

Results

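The genes described here serve protein folding, secretion and quality control in the endoplasmic reticulum (ER). They were measured in spinal discs of mice with proteoglycan-induced spondylitis. A list of 40 such genes was taken, and a gene was measured by the probe sets whose platform annotation names it alone. That rule found 99 probe sets for 39 of the 40 genes, out of 18193 genes measured in all. Sec61g shares its annotated probe set with other genes and was not measured. Immunized mice were female BALB/c mice that received cartilage proteoglycan (100 µg as protein) on days 0, 21 and 42, each time with 2 mg of dimethyldioctadecylammonium bromide as adjuvant. Naive mice were age-matched female BALB/c mice. RNA came from 6 pooled lumbar discs (L1 to L6) per sample, with 5 immunized and 3 naive samples on 1 Affymetrix array each. The labels name no group that received adjuvant alone, so the effects of antigen and adjuvant cannot be told apart. The sample titles call the replicates biological and the design text counts 1 mouse per sample, but 2 samples, naive replicate 3 and immunized replicate 1, carry a pair of sample numbers in their description. Whether each of them pools more than 1 mouse is not given.

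Secreted and membrane proteins enter the ER through the Sec61 channel, lose their signal peptide to the signal peptidase and fold with the help of chaperones such as BiP (Hspa5) and of disulfide isomerases. Proteins that fail to fold are sent back to the cytosol for degradation. When unfolded protein accumulates, the sensors IRE1 (Ern1), PERK (Eif2ak3) and ATF6 start the unfolded protein response, in which the transcription factors XBP1, ATF4 and ATF6 raise the genes of folding and degradation. Chondrocytes of the disc, which export large amounts of collagen and aggrecan, and plasma cells, which export antibody, both carry a large ER.

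Each value is a log2 level from which the probe set's median over the 8 arrays has been taken away. A unit of difference therefore means a doubling, and levels cannot be ranked between genes. The spacing of the deposited numbers still shows a coarse level, that of the lowest array. Of the 99 probe sets, 75 lay at 8 or more (log2) on all arrays. In 24 the lowest array lay between 4 and 8, and other arrays may have been higher. An array below 4 was found in 0. Of all 45101 probe sets, 31.7% were in the class of 8 or more, 57.4% in that of 4 to 8 and 10.9% below 4. The disc label was checked in the same way. Of 13 measured chondrocyte markers, 12 had a probe set at 8 or more on all arrays, Acan and Col2a1 among them, and so had 5 of 8 markers of nucleus pulposus and notochord, including Krt19. RNA of other tissues was also at that level, with 8 of 8 skeletal muscle, 6 of 6 osteoblast and 8 of 9 neutrophil markers. On the second principal component of all genes, naive replicate 1 (32.1) stood apart from the other naive samples (-7.53 and -7.07).

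Some folding genes were higher in the discs of immunized mice. In limma's test over all genes (immunized against naive, Benjamini-Hochberg adjusted p under 0.05), 7 of the 39 ER genes rose: the folding factors Manf, Hspa5, Dnajb11 and Creld2, the degradation factor Edem1, and the transcription factors Xbp1 and Ddit3. This is 17.9% of the ER genes, where 4.46% of all genes rose and 9.14% changed in either direction. By the same test 0 ER genes fell, where 4.68% of all genes fell (812 genes higher and 851 lower, or 541 and 369 after quantile normalization). At an unadjusted p under 0.05, 15 ER genes (38.5%) were higher and 2 lower, against 12.9% and 18.2% of all genes. For 12 ER genes (30.8%) the lowest immunized sample exceeded the highest naive one, which held for 9.39% of all genes. The opposite order was seen in 0 ER genes, against 14% of all genes. These 12 were the 7 called genes and Atf6, Sdf2l1, Sec61b, Spcs1 and Spcs2. Positive differences were found for 27 ER genes (69.2%) and negative for 12, against 43.9% and 56.1% of all genes. The median difference was 0.17 over the ER genes and -0.035 over all genes. In RNA from whole discs, fewer cells of a type and less RNA per cell cannot be told apart.

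**Figure D1:**
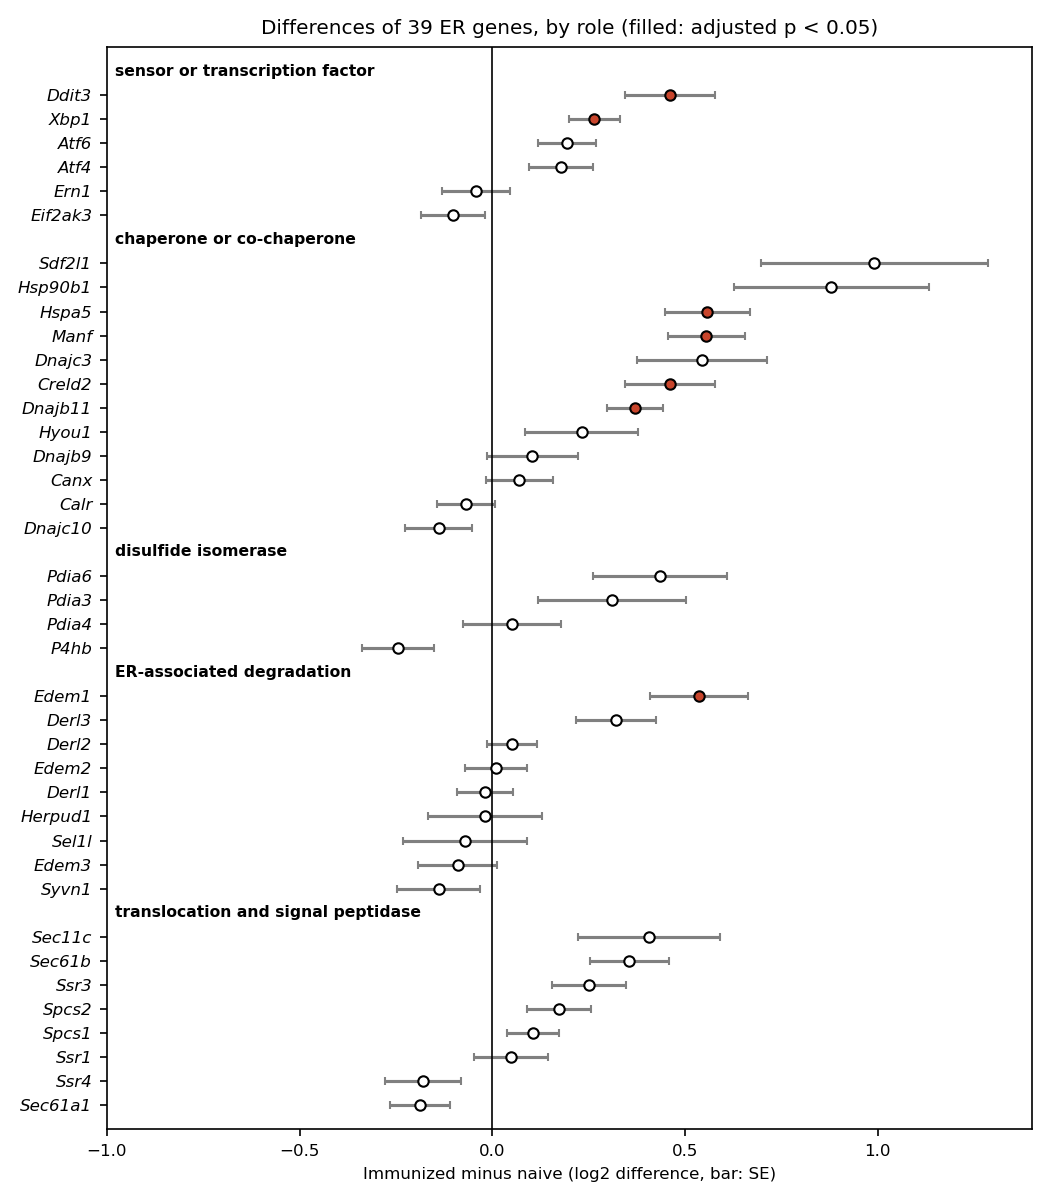
The horizontal axis gives the log2 difference, immunized minus naive, of each of the 39 ER genes, with limma's SE as bars, in 5 groups by role. The 7 filled points have an adjusted p under 0.05, all lie right of 0, and 4 of them are chaperones or co-chaperones.

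By role, the medians of the differences were 0.42 for the 12 chaperones and co-chaperones, 0.19 for the 6 sensors and transcription factors, 0.18 for the 4 disulfide isomerases, 0.14 for the 8 measured genes of translocation and signal peptidase, and -0.019 for the 9 genes of ER-associated degradation. The calls were 4, 2, 0, 0 and 1 in that order. Without adjustment (limma, p under 0.05), the isomerases had 1 higher and 1 lower gene and translocation had 2 higher and 1 lower. Whether these role groups differ from one another was not tested.

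The number of calls changed when single samples were left out. Removing naive replicate 1, 2 or 3 or immunized replicate 1 left 0 ER genes called in limma (13, 14, 15 and 12 higher at an unadjusted p under 0.05), 3 passed without immunized replicate 3 or 4, 2 without immunized replicate 5 and 8 without immunized replicate 2. In the first 4 of these settings, 2037, 1971, 2090 and 1950 of all 18193 genes were higher in limma, unadjusted. The number of all genes called there was 374, 21, 176 and 148. Without immunized replicate 3, 4, 5 or 2 it was 758, 868, 394 and 3003, with 2.28%, 2.7%, 1.3% and 7.11% of all genes higher. The median difference of the ER genes stayed above 0 in all 8 settings, from 0.098 without naive replicate 1 to 0.19 without naive replicate 3. After quantile normalization of the centred values Manf, Hspa5 and Dnajb11 remained called.

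**Figure D2:**
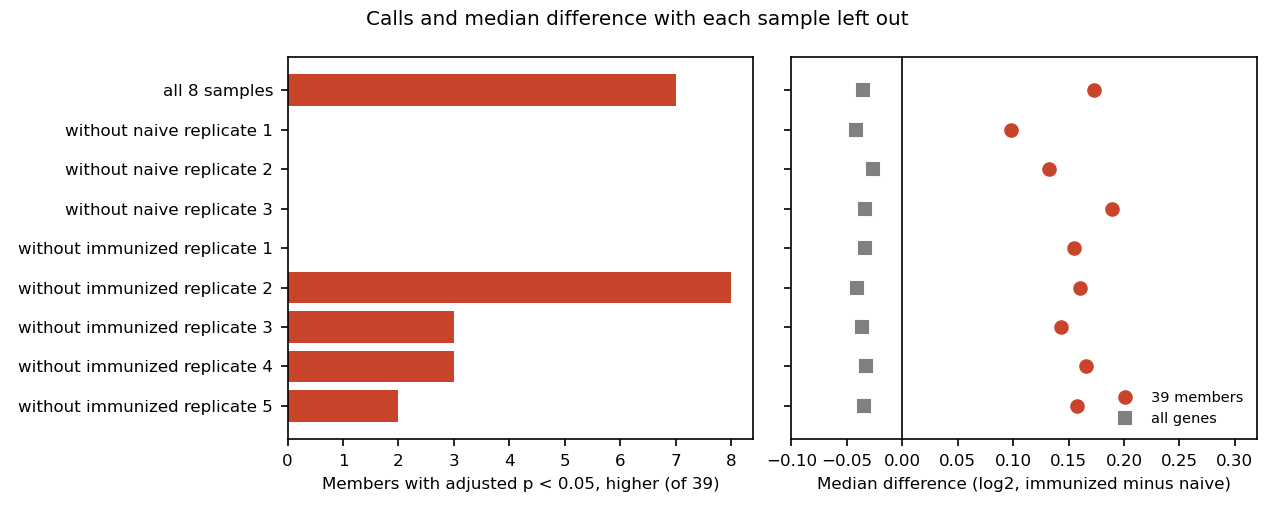
Left, the number of the 39 ER genes called higher with all 8 samples and with each sample left out; right, the median log2 difference (immunized minus naive) of the ER genes (circles) and of all genes (squares) in the same settings. The count runs from 0 to 8 while the median of the ER genes stays between 0.098 and 0.19.

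Manf, a secreted ER-stress protein that binds BiP, had values of -0.49, -0.49 and -0.30 in naive and 0.14, 0.18, 0.32, -0.057 and 0.057 in immunized replicates 1 to 5. The groups did not overlap, and immunized replicate 4 was the lowest of its group. The difference was 0.56 ± 0.10 (SE, adjusted p = 0.0214 in limma), or 1.47-fold.

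Hspa5 encodes BiP, the Hsp70 chaperone of the ER lumen, which also holds the sensors inactive. It measured -0.66, -0.36 and -0.25 in naive and 0.21, 0.12, 0.27, -0.015 and 0.089 in immunized samples. Naive replicate 1 was the lowest and the groups did not overlap. The difference was 0.56 ± 0.11 (adjusted p = 0.0261), or 1.47-fold. Its 3 probe sets differed by 0.86, 0.67 and 0.14, and only the first 2 passed when probe sets were tested singly (adjusted p = 0.0318 and 0.0193).

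Dnajb11 (ERdj3), a co-chaperone that hands unfolded chains to BiP, measured -0.28, -0.36 and -0.24 in naive and 0.14, 0.0064, 0.10, 0.13 and -0.0064 in immunized samples. Both groups were tight (SD 0.061, n = 3, and 0.071, n = 5) and did not overlap. The difference was 0.37 ± 0.07 (adjusted p = 0.0262), or 1.29-fold. Creld2, an ER-stress inducible protein with disulfide isomerase activity, measured -0.36, -0.26 and -0.19 in naive and 0.19, 0.39, 0.39, 0.021 and -0.021 in immunized samples. Immunized replicates 4 and 5 lay nearest to the naive group, without overlap. The difference was 0.46 ± 0.12 (adjusted p = 0.0445), or 1.38-fold.

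Differences with a wider spread did not pass. Hsp90b1 encodes GRP94, the Hsp90 chaperone of the ER. It measured -1.36, -0.64 and -0.083 in naive and 0.30, 0.29, 0.40, 0.054 and -0.13 in immunized samples, and immunized replicate 5 lay below naive replicate 3. The difference was 0.88 ± 0.25 (adjusted p = 0.0606), and 0.54 without naive replicate 1. Sdf2l1, a partner of the BiP cycle, measured -0.17, -1.56 and -0.59 in naive and 0.16, 0.024, 0.74, -0.024 and 0.20 in immunized samples. The groups did not overlap, but the naive samples spread widely (SD 0.71, n = 3). The difference was 0.99 ± 0.29 (adjusted p = 0.0646), and 0.60 without naive replicate 2. Dnajc3 (p58IPK), a BiP co-chaperone and inhibitor of PERK, measured -0.79, -0.38 and -0.036 in naive and 0.16, 0.32, 0.32, -0.026 and -0.055 in immunized samples. Immunized replicate 5 lay below naive replicate 3, and the difference of 0.54 ± 0.17 did not pass (adjusted p = 0.0717). It was 0.35 without naive replicate 1.

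The other chaperones differed less. Hyou1, the nucleotide exchange factor of BiP, differed by 0.23 ± 0.15, Dnajb9 by 0.10 ± 0.12 and the reductase Dnajc10 by -0.14 ± 0.09. The lectin chaperones of glycoprotein folding lay close to 0, with calreticulin (Calr) at -0.068 ± 0.075 and calnexin (Canx) at 0.070 ± 0.086. Of these 5 genes 0 passed in limma, with 0 at an unadjusted p under 0.05.

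**Figure D3:**
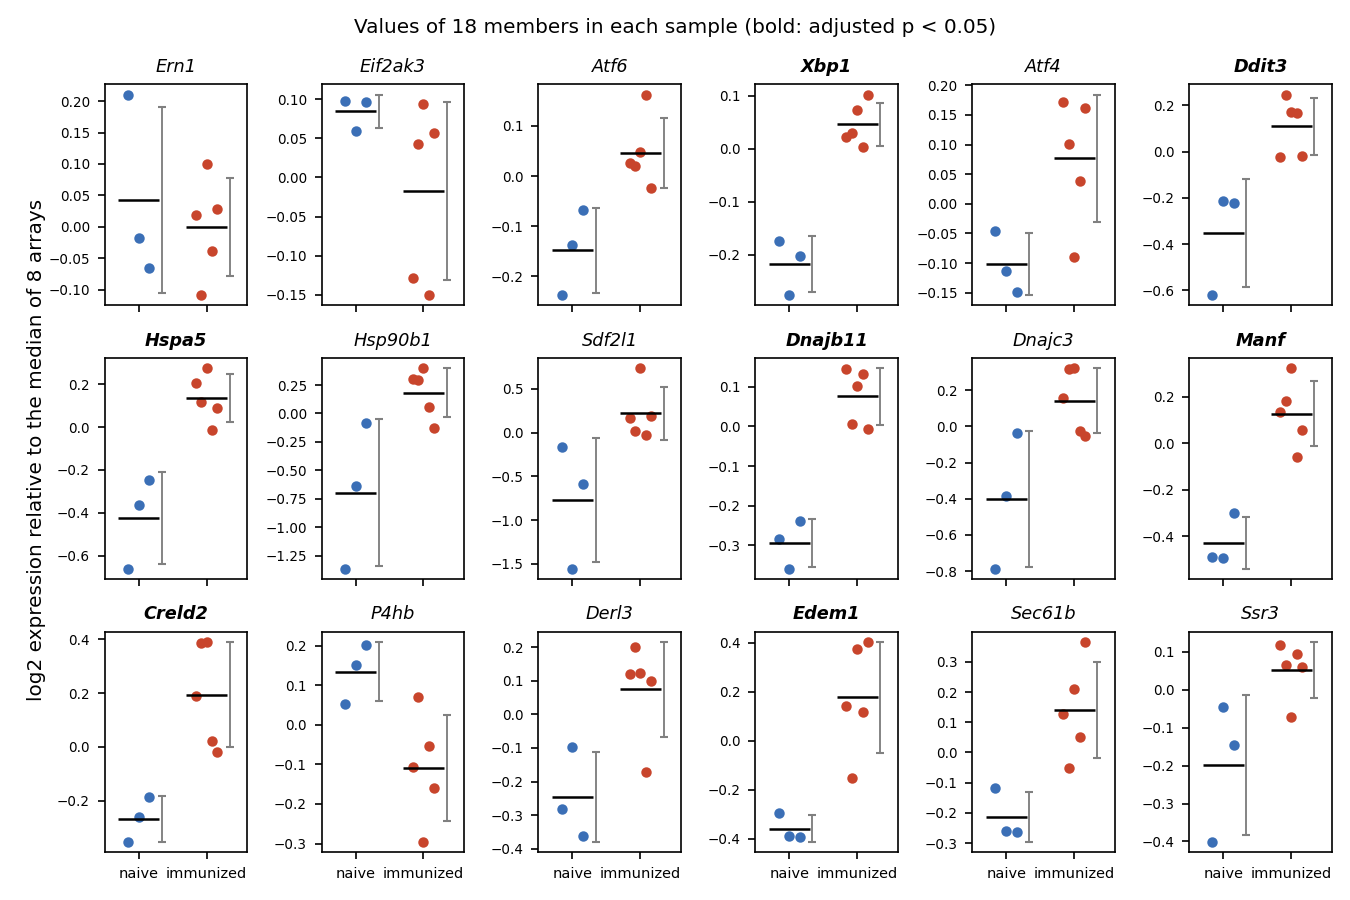
Each panel gives the log2 value, relative to the median of the 8 arrays, of 1 ER gene in the 3 naive (blue) and 5 immunized (red) samples, with the mean as a line and the SD as a bar beside it; the vertical scale differs between panels. In the 7 genes with bold names the groups do not overlap, and in Hsp90b1 and Dnajc3 naive replicate 1 lies far below the other samples.

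Among the disulfide isomerases, Pdia6 and Pdia3 had 1 naive sample far below the rest. Pdia6 measured -0.78 in naive replicate 1, -0.038 and -0.062 in the other naive samples and -0.076 to 0.32 in immunized samples, with a difference of 0.44 ± 0.17 (adjusted p = 0.130). Pdia3, which works with calnexin and calreticulin, measured -0.81 in naive replicate 1, -0.038 and 0.11 in the other naive samples and -0.14 to 0.20 in immunized samples (0.31 ± 0.19). Its 2 probe sets went in opposite directions (0.75 and -0.12). Pdia4 differed by 0.051 ± 0.126.

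P4hb (PDI) is both an isomerase and the beta subunit of the collagen prolyl 4-hydroxylase. It ran the other way, with 0.053, 0.15 and 0.20 in naive and -0.11, 0.070, -0.30, -0.053 and -0.16 in immunized samples. Immunized replicate 2 lay among the naive values, and the difference of -0.24 ± 0.09 did not pass (adjusted p = 0.117).

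Several folding genes carry a common promoter element, and their sequences are shown because the element is the textbook target of ATF6 in this response. The ER stress response element (ERSE) is CCAAT and CCACG with 9 bases between them. Its exact letters were searched on both strands in the 250 bases before each annotated start, in RefSeq sequence of build GRCm38.p6. Copies with a changed letter were not counted, so a gene may hold more elements than are given here. Exact matches occurred in 37 of 32851 promoter windows (0.113%). Of the 39 ER genes 33 had a window, and 9 of these held the element, 2 of which were called higher. Their elements follow 5′ to 3′ in the orientation of the motif, with its fixed letters in capitals.
Hspa5: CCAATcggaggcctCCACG
Hsp90b1, distal: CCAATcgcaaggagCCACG
Hsp90b1, proximal: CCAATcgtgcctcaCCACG
Dnajc3: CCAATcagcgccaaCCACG
Creld2: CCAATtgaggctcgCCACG
Pdia6: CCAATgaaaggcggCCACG
Derl3: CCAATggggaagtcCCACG
Canx: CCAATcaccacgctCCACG
Calr: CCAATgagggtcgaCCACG
Syvn1: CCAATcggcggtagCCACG
The differences of these genes ran from 0.88 for Hsp90b1, which held 2 elements, to -0.14 for Syvn1, with a median of 0.435. The median over all 39 ER genes was 0.17, and calls were 2 of these 9 genes and 7 of the 39. Whether genes with the element differed from those without it was not tested. A match is a description of these letters and shows no binding.

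The 250 bases before the start of Hspa5, Hsp90b1 and Creld2 are given because the first and last were called and the second held 2 elements. Capitals mark each element with its spacer; an element on the opposite strand reads from CGTGG to ATTGG.
Hspa5, chr2:34771840-34772089, plus strand: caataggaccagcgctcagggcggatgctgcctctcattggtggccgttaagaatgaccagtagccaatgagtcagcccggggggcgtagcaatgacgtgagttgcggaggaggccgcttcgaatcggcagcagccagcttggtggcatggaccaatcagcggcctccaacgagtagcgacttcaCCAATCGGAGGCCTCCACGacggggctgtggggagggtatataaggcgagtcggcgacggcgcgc
Hsp90b1, chr10:86705445-86705694, minus strand: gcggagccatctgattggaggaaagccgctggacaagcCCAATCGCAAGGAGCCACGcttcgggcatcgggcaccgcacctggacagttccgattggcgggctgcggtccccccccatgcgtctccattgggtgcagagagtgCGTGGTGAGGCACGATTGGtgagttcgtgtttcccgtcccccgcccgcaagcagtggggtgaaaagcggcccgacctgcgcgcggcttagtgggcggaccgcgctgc
Creld2, chr15:88819396-88819645, plus strand: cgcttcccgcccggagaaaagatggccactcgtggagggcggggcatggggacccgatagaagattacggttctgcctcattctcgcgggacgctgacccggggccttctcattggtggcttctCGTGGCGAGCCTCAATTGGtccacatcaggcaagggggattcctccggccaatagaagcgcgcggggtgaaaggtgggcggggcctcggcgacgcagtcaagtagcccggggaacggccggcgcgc
The element began 65 bases before the annotated start of Hspa5, 212 and 107 bases before that of Hsp90b1 and 126 bases before that of Creld2. The related ERSE-II, ATTGG and CCACG with 1 base between them, occurred in 10 windows (0.0304%) and in 1 ER gene, Herpud1, as ATTGGgCCACG. The UPRE letters TGACGTGG (185 windows, 0.563%) occurred in 0 of the 33 ER genes, and the C/EBP-ATF letters TGATGCAA (260 windows, 0.791%) in Herpud1 alone. Xbp1, Ddit3, Dnajb11 and Edem1 had a window without an exact match to any of these motifs. Near matches and bases further upstream were not searched, so such sites in these genes are not excluded. Manf, Hyou1, Atf6, Derl1, Sec61a1 and Sec11c had no window in the table.

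Of the 6 sensors and transcription factors, Xbp1 and Ddit3 rose. Xbp1, whose mRNA is spliced by IRE1 into the active form, measured -0.17, -0.28 and -0.20 in naive and 0.022, 0.030, 0.073, 0.0032 and 0.10 in immunized samples. It had narrow groups that did not overlap, with a difference of 0.26 ± 0.07 (adjusted p = 0.0438). All 4 of its probe sets had positive differences, from 0.14 to 0.51, and only the one of 0.51, in the level class 4 to 8, passed singly. With probe sets of the highest level class alone the difference was 0.18 and the call was lost (adjusted p = 0.109). Whether a probe set separates the spliced from the unspliced form was not examined.

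Ddit3 encodes CHOP, a factor that PERK signalling raises through ATF4. It measured -0.62, -0.21 and -0.22 in naive and -0.025, 0.25, 0.17, 0.17 and -0.017 in immunized samples, without overlap. The difference was 0.46 ± 0.12 (adjusted p = 0.0454), or 1.38-fold. Its 2 probe sets disagreed. The probe set at the lower level class (4 to 8) differed by 0.80 ± 0.18 and the one at 8 or more by 0.13 ± 0.13, so the call did not hold where only probe sets of the highest level class were used (adjusted p = 0.535).

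Atf4, the factor translated when PERK slows protein synthesis, measured -0.045, -0.11 and -0.15 in naive and 0.17, 0.10, -0.091, 0.039 and 0.16 in immunized samples. Immunized replicate 3 fell among the naive values, and the difference of 0.18 ± 0.08 did not pass (adjusted p = 0.176). Its 3 probe sets differed by 0.55, 0.34 and -0.35, and the sign of the gene turned to -0.0064 where probe sets ending in _x_at or _s_at were left out. With the 2 probe sets of the higher level class alone, Atf4 was called (0.44, adjusted p = 0.0284).

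Among the sensors, Atf6 measured -0.24, -0.14 and -0.069 in naive and 0.025, 0.020, 0.049, 0.16 and -0.024 in immunized samples, without overlap. Its difference of 0.19 ± 0.08 did not pass (adjusted p = 0.121). Ern1 measured 0.21, -0.017 and -0.066 in naive and 0.018, -0.11, 0.10, -0.038 and 0.028 in immunized samples, so the groups overlapped widely. Its difference was -0.043 ± 0.088 (adjusted p = 0.775), and 0.041 without naive replicate 1. Eif2ak3 measured 0.098, 0.060 and 0.096 in naive and -0.13, 0.043, 0.095, -0.15 and 0.057 in immunized samples, with a difference of -0.10 ± 0.08 (adjusted p = 0.432).

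Of the 9 degradation genes, Edem1 rose. Edem1, a lectin that hands misfolded glycoproteins over for degradation, measured -0.29, -0.39 and -0.39 in naive and 0.14, -0.15, 0.38, 0.12 and 0.40 in immunized samples. The groups did not overlap, and immunized replicate 2 was nearest to the naive samples. The difference was 0.54 ± 0.13 (adjusted p = 0.0377), or 1.45-fold. Its 2 probe sets differed by 0.62 and 0.45, and only the first passed singly in limma (adjusted p = 0.0341 and 0.0900). In the second the groups overlapped. Derl3, the derlin most tied to professional secretory cells, measured -0.28, -0.098 and -0.36 in naive and 0.12, 0.20, 0.12, -0.17 and 0.098 in immunized samples. Immunized replicate 4 fell among the naive values, and the difference of 0.32 ± 0.10 did not pass (adjusted p = 0.0790).

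The remaining degradation genes ranged from -0.14 (Syvn1, the ubiquitin ligase HRD1) to 0.051 (Derl2). Between them lay Edem2 (0.0096), Derl1 (-0.019), Herpud1 (-0.020), Sel1l (-0.071), the partner of HRD1, and Edem3 (-0.090). All had overlapping groups, and 0 of these 7 passed in limma or had an unadjusted p under 0.05.

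In translocation, Sec61b, the small beta subunit of the channel, measured -0.12, -0.26 and -0.26 in naive and 0.13, -0.050, 0.21, 0.050 and 0.37 in immunized samples. The groups did not overlap, but the difference of 0.36 ± 0.10 did not pass (adjusted p = 0.0608). The channel-forming subunit Sec61a1 differed by -0.19 ± 0.08 (adjusted p = 0.144), with 6 probe sets from -0.47 to 0.024. Ssr3, a subunit of the translocon-associated complex, measured -0.40, -0.046 and -0.14 in naive and 0.12, 0.065, -0.073, 0.095 and 0.060 in immunized samples (0.25 ± 0.10, adjusted p = 0.115). Immunized replicate 3 lay below naive replicate 2, and without naive replicate 1 the difference was 0.15. The partners of Ssr3, Ssr1 (0.048 ± 0.096) and Ssr4 (-0.18 ± 0.10), did not pass either.

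The signal peptidase genes Sec11c (0.41 ± 0.18), Spcs2 (0.17 ± 0.08) and Spcs1 (0.11 ± 0.07) had positive differences and did not pass in limma (0 at an unadjusted p under 0.05). Spcs1 and Spcs2 had groups that did not overlap. Of the Spcs1 probe sets, only the one in the level class 4 to 8 (0.34) had separate groups. Its 2 probe sets at 8 or more differed by -0.0074 and -0.015, with overlapping groups. Sec11c, the catalytic subunit, was highest in immunized replicates 5 and 3 (0.46 and 0.38), while naive replicate 1 (0.081) lay above immunized replicates 2 (-0.24) and 4 (-0.014). Its probe set at the lower level class (4 to 8) differed by 0.13 with overlapping groups. The one at 8 or more differed by 0.68 without overlap and did not pass singly in limma (adjusted p = 0.0531). Sec11c was called with probe sets of the highest level class only and with array weights.

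**Figure D4:**
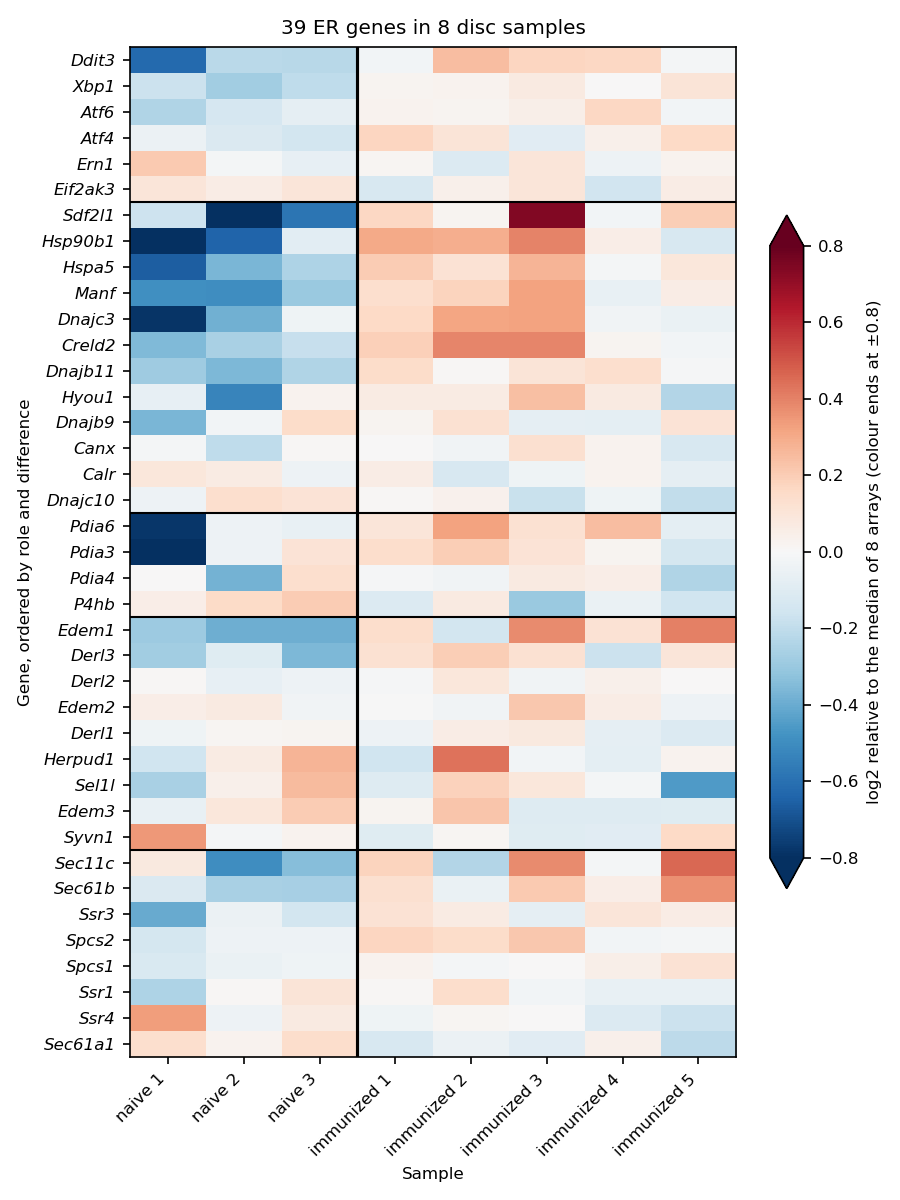
Rows are the 39 ER genes, set apart by role and ordered by difference within it; columns are the 3 naive and 5 immunized samples; colour is the log2 value relative to the median of the 8 arrays. Naive replicate 1 holds the lowest value of 13 genes, and immunized replicate 3 the highest of 11.

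Across samples, naive replicate 1 held the lowest value of 13 ER genes, naive replicate 2 of 9, immunized replicate 5 of 6 and naive replicate 3 of 4. Highest values were most frequent in immunized replicate 3 (11 genes) and immunized replicate 2 (8 genes), followed by naive replicates 1 and 3 and immunized replicate 5 (5 genes each). The mean of the 12 chaperones was -0.38, -0.38 and -0.12 in naive and 0.12, 0.12, 0.22, 0.0086 and -0.033 in immunized samples. Immunized replicates 4 and 5 thus lay nearest to the naive group. The mean of the 7 called genes, which were picked for their difference, ran from -0.41 to -0.25 in naive and from 0.053 to 0.24 in immunized samples.

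Probe sets of one gene often differed. Of the 39 genes 31 had 2 or more probe sets, and in 14 of them the probe sets included both signs. Tested singly over all 45037 probe sets, 7 probe sets of 6 ER genes were higher and 0 lower in limma (3.30% and 2.89% of all probe sets). The 6 genes were Xbp1, Ddit3, Hspa5, Dnajb11, Manf and Edem1.

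**Figure D5:**
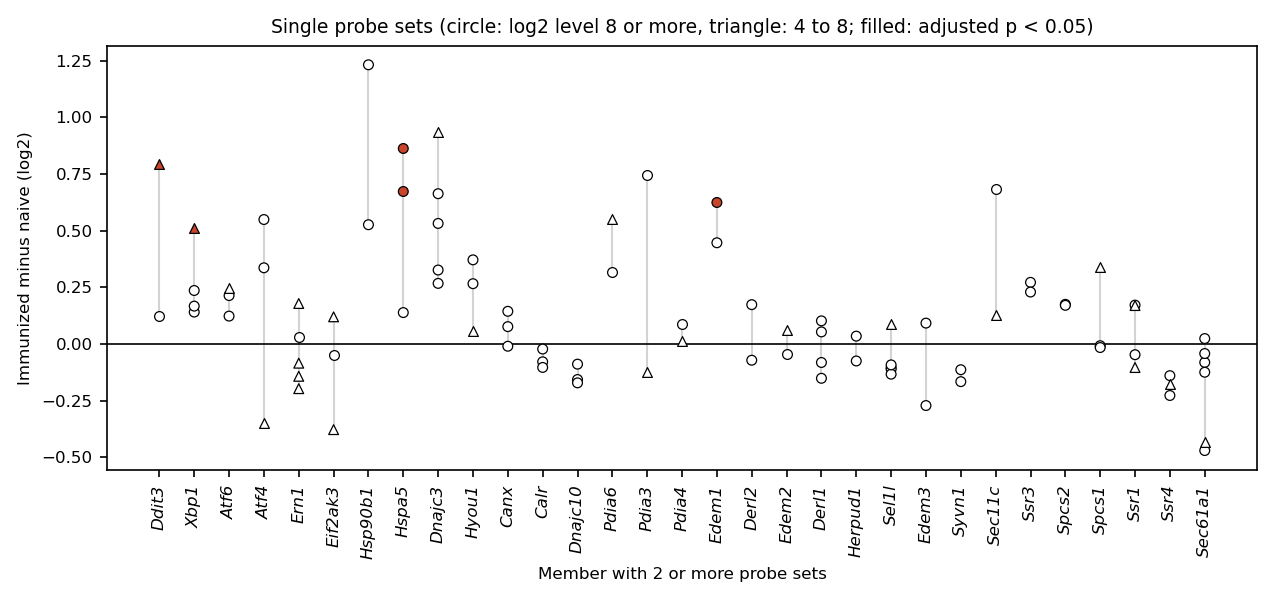
Each point is the log2 difference (immunized minus naive) of 1 probe set of the 31 ER genes with 2 or more. Circles mark a level of 8 or more (log2) on all arrays and triangles a lowest array between 4 and 8. Filled points have an adjusted p under 0.05 in limma over all probe sets. The 2 probe sets of Ddit3 lie at 0.13 and 0.80, and the 3 of Atf4 on both sides of 0.

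Further genes of the same pathway came from 7 lists. Over their 116 measured genes, 15 rose (12.9%) and 1 fell, against 4.46% and 4.68% of all genes. At an unadjusted p under 0.05 in limma, 20 were higher (17.2%) and 22 lower, against 12.9% and 18.2% of all genes. The median difference of the 116 genes was -0.026, beside -0.035 over all genes. Among 24 regulators and targets of the unfolded protein and integrated stress responses, 6 rose and 0 fell in limma (8 higher and 3 lower, unadjusted). They included Atf3, a stress-induced factor (1.42 ± 0.25), Eif2ak2, the interferon-inducible kinase PKR (1.05 ± 0.18), Ppp1r15b, a phosphatase subunit that reverses eIF2alpha phosphorylation (0.62 ± 0.12), and Nfe2l2 (0.43 ± 0.10). Atf3 was -1.03 to -0.81 in naive and -0.078 to 1.02 in immunized samples.

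Of 17 genes of oxidative folding and proline isomerization, 5 rose and 1 fell in limma (5 higher and 4 lower, unadjusted). Of all genes, 4.46% rose and 4.68% fell, and 12.9% were higher and 18.2% lower, unadjusted. The list was mixed, with negative differences in 9 of the 17 genes and a median of -0.021. The thiol oxidase Ero1b (0.62 ± 0.12), the transmembrane thioredoxin Tmx3 (0.84 ± 0.17) and the chaperone Erp29 (0.36 ± 0.08) rose. The rise of Ero1a (0.67 ± 0.16) and Fkbp2 (0.37 ± 0.08) is named after their values were seen. The collagen-binding prolyl isomerase Fkbp14 fell, from 0.35 to 0.41 in naive to -0.28 to 0.14 in immunized samples (-0.47 ± 0.11). Of 15 further genes of translocation, Spcs3 (0.58 ± 0.10), Srp19 (0.63 ± 0.14) and Srp9 (0.31 ± 0.08), parts of the signal peptidase and of the signal recognition particle, rose and 0 fell in limma (2 lower, unadjusted).

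In limma 0 genes passed among 16 of N-glycosylation (2 higher and 3 lower, unadjusted). The same held for 13 further degradation genes (0 higher and 1 lower) and 20 of ER to Golgi transport (0 higher and 6 lower). Of all genes, 12.9% were higher and 18.2% lower, unadjusted, and the N-glycosylation counts lay near these shares. Of 11 collagen folding genes the ion channel gene Tmem38b rose (0.49 ± 0.09) and 0 fell in limma, with 3 lower at an unadjusted p under 0.05. The other 10 of the 11 had negative differences, and the median was -0.27.

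Markers of several other cell types differed between the groups, and others varied among samples. The counts below stand beside 4.46% of all genes that rose and 4.68% that fell in limma. Unadjusted, these shares were 12.9% and 18.2%. Of 9 measured plasma cell markers Jchain (2.99 ± 0.27) and Ighm (1.71 ± 0.38) rose, while 5 of the 9 had negative differences and the median difference was -0.073. The mean of the 9 was -0.62 to -0.0085 in naive and 0.033 to 0.21 in immunized samples, but their median overlapped, with -0.19 to 0.063 and -0.094 to 0.27. The plasma cell genes Mzb1 (0.0064 ± 0.299), Sdc1 (-0.089 ± 0.233) and Tnfrsf17 (-0.14 ± 0.09) did not pass, and Mzb1 was highest in naive replicate 1 (0.91). Of 12 macrophage markers 7 rose, with a mean of -0.96 to -0.45 in naive and 0.012 to 0.78 in immunized samples. Of 9 neutrophil markers 3 rose, with means of -0.67 to -0.093 and -0.13 to 0.60. Of 13 chondrocyte markers 5 fell, with means of 0.39 to 0.65 in naive and -0.92 to 0.30 in immunized samples. All 8 nucleus pulposus and notochord markers and all 6 osteoblast markers had negative differences, with 1 call in each (Krt19, -2.01 ± 0.36, and Alpl, -0.68 ± 0.16). Their means were 0.38 to 0.52 and 0.14 to 0.39 in naive, and -0.80 to 0.34 and -0.50 to 0.11 in immunized samples. In limma 0 of 6 erythroid and 0 of 8 skeletal muscle markers passed, with 0 at an unadjusted p under 0.05, and 0 of 9 fibroblast and tendon markers (1 higher and 1 lower, unadjusted). The erythroid mean was 0.25, -0.34 and -0.11 in naive and 0.19, -0.26, 0.79, -0.25 and 0.19 in immunized samples. The muscle mean was -0.57 in naive replicate 1 and 0.22 and 0.049 in the other naive samples, with -0.25 to 0.29 in immunized samples. The fibroblast mean was -0.15 to 0.089 in naive and -0.58 to 0.36 in immunized samples. No B cell marker of 9 passed in limma (3 lower, unadjusted), and the B cell mean was -0.13 to 0.51 in naive and -0.20 to 0.24 in immunized samples. The centred values give no level of 0, and 0 of the measured markers were in the class below 4 (log2). The part of these cell types in the ER gene differences was not tested.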

How the data were processed

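The submitters' processing notes name RMA (robust multi-array average), with a version not given in the sources used here. The authors deposited its output as log2 values, taken as base 2 because RMA gives that base. Each probe set had also been centred, since its median across arrays departs from 0 by at most 5e-07. Level classes were read from the spacing of the printed single-precision numbers. Genes were named by the platform annotation, with RefSeq symbols of GRCm38.p6. Each of 18193 genes was the mean of the probe sets naming it alone (34958 of 45101), without 64 control probe sets. Groups were compared by a moderated two-sided test without covariates (limma 3.58.1 under R 4.3.3), called at 0.05. It was tested on simulated data of 18193 genes with independent normal noise, of which 200 were changed. There it recovered 46% of genes changed by 0.5 (log2) and 78% of those changed by 1, with 11 false calls among 135. The number of arrays limits the precision. The labels give no batch. Alternatives in scaling, probe sets, test and samples were tried. Quantile normalization was applied to the deposited centred values, so it evened out the spread of the arrays and not their expression levels. The labels do not say that replicate numbers pair the samples, and no 2 arrays held identical values. Values per sample are given for called genes, for the sensors, transcription factors, Hspa5 and Hsp90b1, and for the 6 further genes with the largest moderated t; other lists name at most 4 called genes by rule. Other names (such as Ero1a and Fkbp2) and the sample values of Pdia3, Pdia6 and Sec11c were added after their values were seen. The genes and lists were chosen with earlier results of these data known. Promoter windows came from a RefSeq table.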

Additional observations from a re-analysis of the deposited data

Results flagged for a closer look

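Of 18 ER genes examined for a sample standing apart within the immunized group, 2 had one. Sdf2l1 was highest in immunized replicate 3 (0.74), whose gap to the next sample was 0.712 of the range of the group. Derl3 was lowest in immunized replicate 4 (-0.17), with a gap of 0.727 of the range. The critical value for 5 samples is 0.71, and chance alone flags about 5% of groups.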

How the results depend on the processing

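In 19 settings that give single-gene values, 338 of 342 values of the 18 named ER genes kept their direction. The exceptions were Atf4 without probe sets ending in _x_at or _s_at (-0.0064) and Ern1 with probe sets of the highest level class only (0.032), with array weights (0.027) and without naive replicate 1 (0.041). Of the 18 genes, the 7 called ones and the 6 with the largest moderated t were picked from these same data. The settings also share arrays, so the count of kept directions is no independent check. Genes called over all genes and ER genes called higher were 1663 and 7 as reported, 910 and 3 after quantile normalization and 5900 and 14 with array weights (1 lower, P4hb). These counts were 54 and 0 at a threshold of 0.01 and 3783 and 12 at 0.1. Without both samples with joined numbers the counts were 0 and 0 in limma, with 11 ER genes and 1621 of all genes higher, unadjusted. A further setting left out naive replicate 1 and immunized replicates 3 and 5, known from earlier results as high in marrow genes. Their erythroid means were 0.25, 0.79 and 0.19, the last like immunized replicate 1. There the counts were 218 and 0, with 13 ER genes and 1935 of all genes higher, unadjusted. With the replicate number as a block the counts were 7 and 0, with 13 ER genes and 1845 of all genes higher, unadjusted. Deviations of same-numbered samples from their group means had r = -0.047, 0.24 and -0.10 over all genes. Differently numbered samples had r from -0.38 to 0.33. With so few samples these values cannot decide whether equal numbers mark a shared batch or pair. With each sample left out, all genes called ranged from 21 to 3003, ER genes called higher from 0 to 8 and the median of the ER genes from 0.098 to 0.19. That median was 0.17 as reported, 0.11 without _x_at and _s_at probe sets and 0.092 over single probe sets. Manf passed in 12 of 19 settings, Hspa5 and Dnajb11 in 11, Edem1 in 8, Creld2 in 7, Xbp1 and Ddit3 in 6. The cause was not tested. A listed filter on the mean value was not run, since the table keeps no level. In simulation 46% of changes of 0.5 were found, so differences of that size may be missed. The simulation changed 200 genes with independent noise, while 1663 genes were called in the data, so the share found may differ there.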

Other observations

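Genes that modify collagen in the ER or carry cargo to the Golgi varied among the immunized samples. The mean of the 11 collagen folding genes was 0.0021 to 0.19 in naive samples, and -0.097, 0.22, -0.61, -0.029 and -0.41 in immunized replicates 1 to 5. By this mean, immunized replicate 2 lay above all naive samples and replicates 3 and 5 below them. By the median of the same genes all immunized samples lay below all naive ones (-0.66 to 0.091 against 0.17 to 0.25), replicate 2 included. The mean of the 20 ER to Golgi genes was likewise lowest in immunized replicates 3 (-0.26) and 5 (-0.11), against -0.0044 to 0.086 in naive samples. The chondrocyte marker mean was also lowest in these samples (-0.92 and -0.57). Among these genes, named after their values were seen, the prolyl 3-hydroxylase P3h1 (-0.72 ± 0.20) and its partner Crtap (-0.63 ± 0.18) did not pass in limma (adjusted p = 0.0550 and 0.0619). Nor did Creb3l1 (-0.89 ± 0.29) and Creb3l2 (-0.77 ± 0.24), transcription factors of secretory capacity in matrix-making cells (adjusted p = 0.0821 and 0.0705).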
